A study of Drosophila melanogaster and Drosophila simulans with 21 samples.

Results

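Synaptonemal complex, cohesion and meiotic checkpoint genes were followed in virgin females of a species hybrid and of both parental species. The 4 genes were c(3)G (CG17604, chromosome arm 3R), c(2)M (CG4249, 2L), eco (CG8598, 3L) and pch2 (CG31453, 3R). They were chosen by their roles in meiotic chromosomes together with their measured log2 ratios in the 3 strain comparisons below, so those differences are a description and carry no test. Each was represented by 1 probe position. They were 4 of the 1384 named genes tested, within 4753 features when unnamed positions are counted.

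The RNA came from whole adult females of 3 kinds: F1 hybrids of D. melanogaster Canton S mothers and D. simulans Sim-1 fathers, pure D. simulans Sim-1, and pure D. melanogaster Canton S. Stocks were kept at 25 C and crosses made at 18 C with 7 to 8 flies per sex, and females were held unmated for 5 to 6 days before freezing within a daily window of 2 hours. Per the labels, 2 cohorts were used for each cross, but the extractions were combined into 1 RNA pool per strain. Each pair of pools was hybridised on 6 of the 21 arrays, which carry 2 labelled cDNAs at once, with each RNA in channel 1 on 3 arrays and in channel 2 on 3, and 3 more arrays held the same RNA in both channels. The arrays are therefore technical repeats of 3 pools, errors and p-values measure the spread between arrays only, and a difference between strains cannot be told apart from a difference between their pools.

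In meiotic prophase, homologous chromosomes are held together along their length by the synaptonemal complex, a protein lattice that in Drosophila is assembled in oocytes and their sister cells in the ovary and not in males. The complex is built on chromosome axes that contain cohesin, the ring that also holds sister chromatids together in mitotic cells. C(3)G forms the transverse filaments that span the complex, C(2)M, a distant relative of the kleisin subunit of cohesin, lies on the axes, and the acetyltransferase encoded by eco modifies the cohesin subunit Smc3 so that cohesion is established. Pch2 is an AAA ATPase that in Drosophila females acts in a checkpoint sensing chromosome axis defects, and c(3)G, c(2)M and pch2 are known mainly from the female germline, whereas eco is needed in dividing cells generally.

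Values are log2 ratios after each array's median was subtracted, so that 0 is the median position of an array. The numerator of the deposited ratio is not named in the labels. It was read as channel 1 over channel 2, a reading adopted in earlier work on these data partly because germline genes, c(3)G among them, then lie lower in the hybrid. Every log2 sign given here turns in the other reading, while the sizes of the log2 differences and the spread between arrays stay, and the low values of these genes in the hybrid are no independent evidence of direction. Because the ratios come from whole bodies, fewer cells of a type and less RNA per cell cannot be told apart.

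Hybrid females had less RNA of c(2)M, eco and pch2 than either parental species, whereas c(3)G was low in both the hybrid and D. simulans and high in D. melanogaster alone. With D. melanogaster set to 100%, the fitted level of pch2 was 12.6% in the hybrid and 62.3% in D. simulans. The level of eco was 33.1% in the hybrid and 77.2% in D. simulans, and that of c(2)M was 33.4% and 72.0%. For c(3)G it was 32.0% in the hybrid and 29.0% in D. simulans. In the hybrid, c(3)G, c(2)M and eco thus stood at nearly the same level relative to D. melanogaster, with 95% intervals of 24.6% to 41.5%, 27.3% to 40.8% and 28.9% to 37.8%, and pch2 stood apart with an interval of 10.2% to 15.6%. In D. simulans the order differed, and c(3)G was the gene that stood apart, at 22.0% to 38.3%. The other intervals there overlapped one another, at 59.4% to 87.3% for c(2)M, 68.5% to 87.1% for eco and 50.4% to 77.1% for pch2.

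**Figure D1:**
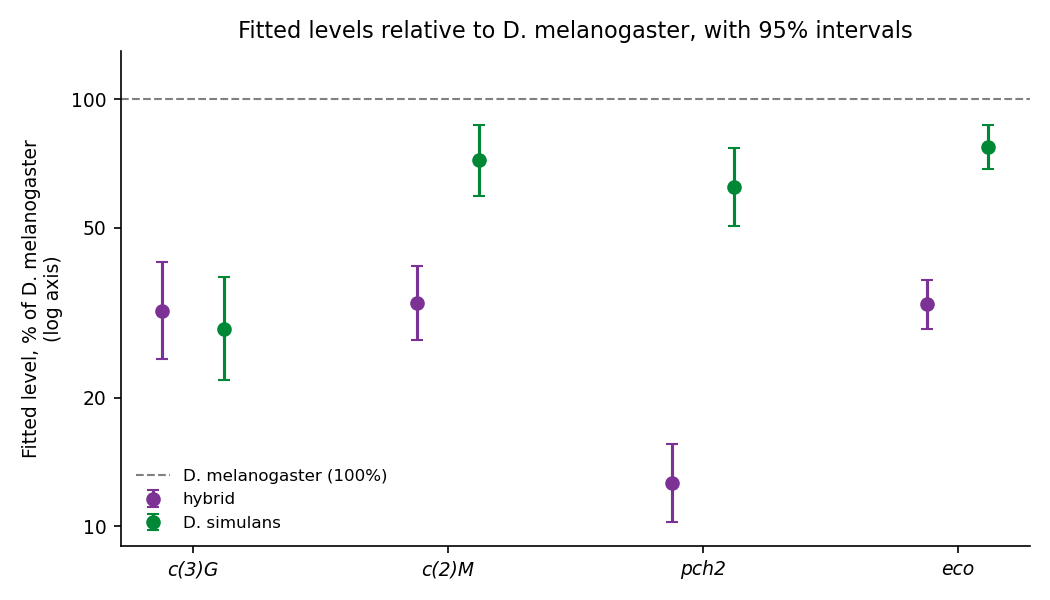
Fitted levels of the 4 genes as a percentage of the D. melanogaster level (log axis) in the hybrid (purple, left) and D. simulans (green, right), with 95% intervals from the fit over 18 arrays. In the hybrid pch2 lies lowest at 12.6%, and c(3)G is the gene whose hybrid and D. simulans points lie side by side, at 32.0% and 29.0%.

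The synaptonemal complex gene c(3)G was measured on all 6 arrays of hybrid against D. melanogaster, where the lowest log2 ratio was -2.57, the median -1.35 and the highest -0.28. Every array had the hybrid lower, but the values spread widely, and the mean was -1.45 ± 0.84 (SD, n = 6). The fitted difference was -1.65 ± 0.18 (SE), or 3.13-fold.

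Against D. simulans, 5 arrays gave values for c(3)G of 0.17, 0.15, 0.01, -0.48 and -0.61. They lay on both sides of 0, with a mean of -0.15 ± 0.37 (SD, n = 5) and a fitted value of 0.14 ± 0.18 (SE). The 95% interval of that difference ran from -0.25 to 0.53, so a hybrid level between 84.1% and 144% of the D. simulans level was within the array error. The direct mean and the fitted value had opposite signs, because the fit also uses the arrays that link both RNAs through D. melanogaster. With arrays scaled to a common spread the fitted value was 1.06 ± 0.40 (SE), so the fitted closeness of hybrid and D. simulans depended on the scaling. That scaling multiplies the ratios of each array by a factor, so the direct ratios keep their signs. Under it, the direct D. simulans over D. melanogaster value minus the value through the hybrid was -3.08 ± 0.41 (SE). Without scaling, the direct arrays of hybrid against D. simulans alone gave -0.10 ± 0.12 (SE).

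Between the parental species, c(3)G had ratios of -2.08, -2.22, -2.46, -1.49 and -1.62 for D. simulans over D. melanogaster. All 5 arrays had D. simulans lower, and no array of this pair overlapped with those of hybrid against D. simulans. The fitted difference of -1.79 ± 0.19 (SE) was the 25th lowest of the 4753 features. The probes are annotated to D. melanogaster genes, and how well D. simulans cDNA binds them was not measured on its own.

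For c(2)M, which lies on the meiotic axis, 5 arrays of hybrid against D. melanogaster gave log2 ratios of -1.23, -1.43, -1.18, -2.06 and -2.52. All lay below -1, with a mean of -1.69 ± 0.58 (SD, n = 5) and a fitted value of -1.58 ± 0.14 (SE), or 3.00-fold. Against D. simulans the lowest of 6 ratios was -1.40, the median -1.02 and the highest -0.63. The hybrid was again lower on each array, and the fitted value was -1.11 ± 0.14 (SE), or 2.16-fold.

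The species difference of c(2)M was smaller than its differences from the hybrid, and its sign was less even. Over all features, 17.7% had a fitted species difference at least as large. The lowest ratio of D. simulans over D. melanogaster was -0.63, the median -0.56 and the highest 0.38, so that 5 of 6 arrays had D. simulans lower and 1 had it higher. The mean was -0.40 ± 0.39 (SD, n = 6) and the fitted value -0.47 ± 0.13 (SE). Without the array that ran the other way, the fitted value was -0.60.

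The cohesion gene eco had values on 4 of 6 arrays of hybrid against D. melanogaster, at -1.54, -1.27, -1.62 and -1.56. These were the closest to one another of any member in a comparison with hybrid RNA, with a mean of -1.50 ± 0.16 (SD, n = 4) and a fitted value of -1.60 ± 0.091 (SE), or 3.02-fold. Against D. simulans the ratios had a lowest value of -1.69, a median of -1.26 and a highest value of -0.70. The hybrid was lower on 6 of 6 arrays, with a fitted value of -1.22 ± 0.087 (SE), or 2.34-fold.

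In D. simulans over D. melanogaster, eco had a lowest ratio of -0.55, a median of -0.45 and a highest of -0.26. The 6 values all lay below 0 and did not overlap with the eco values of either comparison with the hybrid. The fitted value of -0.37 ± 0.082 (SE) was the smallest species difference of the 4 genes.

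The checkpoint gene pch2 was the only member with values on all 18 arrays, and it had the lowest ratios. Against D. melanogaster the hybrid's lowest ratio was -3.50, the median -2.91 and the highest -1.97. Against D. simulans the lowest was -3.22, the median -2.49 and the highest -1.41. All 12 arrays with hybrid RNA had the hybrid lower, by means of -2.87 ± 0.50 and -2.43 ± 0.58 (SD, n = 6 each).

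The fitted differences of pch2 were -2.99 ± 0.15 (SE) against D. melanogaster, or 7.95-fold, and -2.31 ± 0.15 against D. simulans, or 4.96-fold. Of all features tested, 0.778% and 1.83% lay as low or lower in those comparisons. The corresponding shares were 5.79% and 9.30% for eco, 5.93% and 11.0% for c(2)M, and 5.39% and 55.0% for c(3)G. Between the species pch2 was lower in D. simulans on 6 of 6 arrays, with a lowest ratio of -1.23, a median of -0.69 and a highest of -0.59, and a fitted value of -0.68 ± 0.15 (SE).

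**Figure D2:**
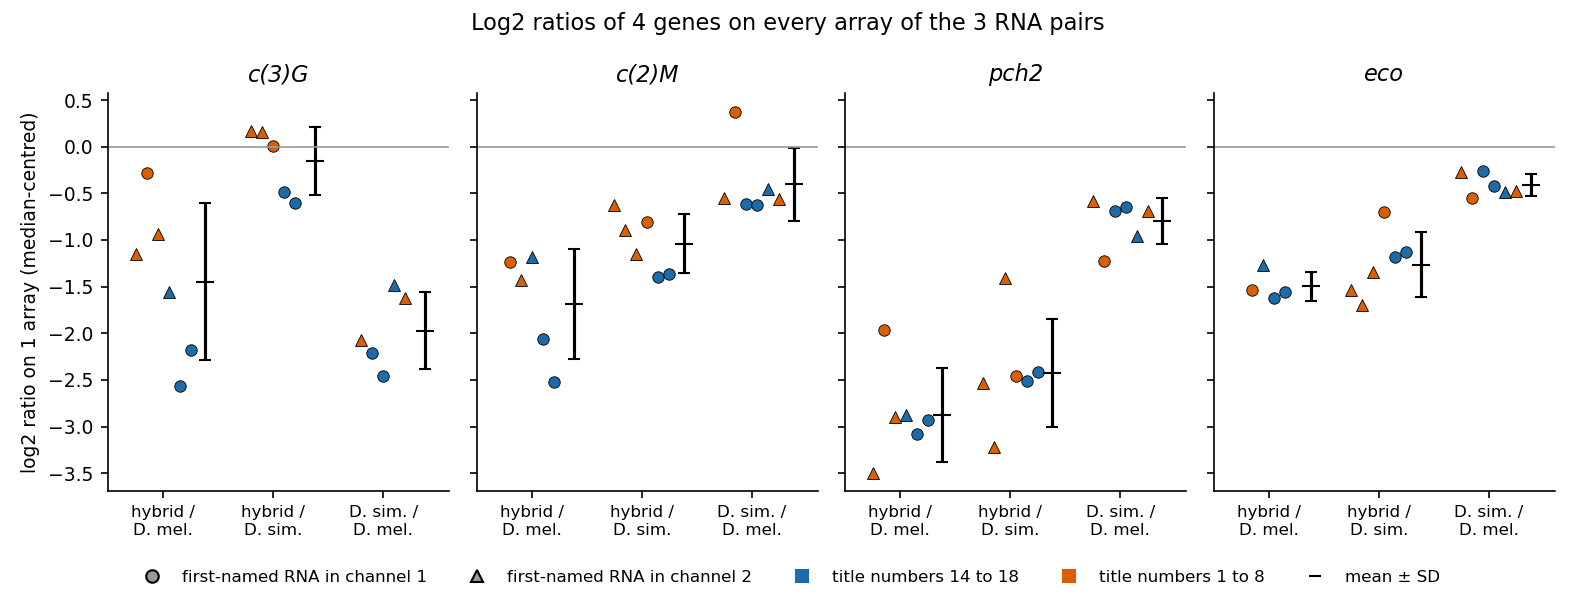
Log2 ratios of the 4 genes on each array, for hybrid over D. melanogaster, hybrid over D. simulans and D. simulans over D. melanogaster. Circles have the first-named RNA in channel 1 and triangles in channel 2, blue marks title numbers 14 to 18 and orange 1 to 8, and bars are mean ± SD. All values of pch2 and eco lie below 0, c(2)M has 1 value above 0, and c(3)G lies on both sides of 0 for hybrid over D. simulans.

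The 3 comparisons share their pools in pairs, so the values of one are partly fixed by the others. Of the 4 genes, 4 passed the threshold of adjusted p = 0.05 against D. melanogaster, all with the hybrid lower, where 83.8% of all features passed and 41.8% were called lower. Against D. simulans 3 of the 4 were called lower, with 82.2% of all features called and 40.8% called lower, and in D. simulans against D. melanogaster 4 of 4, with 46.8% called and 23.5% called lower. Calls in both comparisons with the hybrid put c(2)M, eco and pch2 below both parents, a position held by 36.2% of all features. The position of c(3)G, lower than D. melanogaster in the hybrid and in D. simulans with no call between them, was held by 3.07%. The genes were picked with these differences in view, so the counts carry no test. The members' median fitted log2 difference was -1.62 for hybrid minus D. melanogaster and -1.17 for hybrid minus D. simulans, where the medians over all features were both 0.02.

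Set against the midpoint of the parental log2 levels, the value of the hybrid was -2.65 ± 0.13 (SE) for pch2, -1.41 ± 0.079 for eco, -1.35 ± 0.12 for c(2)M and -0.75 ± 0.16 for c(3)G. All 4 were called lower there, where 85.3% of all features were called and 42.3% were called lower. On a linear scale the hybrid had 15.5% of the parental mean for pch2, 37.3% for eco, 38.8% for c(2)M and 49.5% for c(3)G. These linear shares are not mirrored in the other reading of the ratio, which gives 610% for pch2, 264% for eco, 251% for c(2)M and 141% for c(3)G. The log2 value of c(3)G was less firm than the others, at -1.03 in title numbers 14 to 18 alone, -0.25 ± 0.16 (SE) in 1 to 8 alone, and -0.45 ± 0.34 (SE) with arrays scaled to a common spread. Against the midpoint of the parental log2 levels, c(2)M and eco were neighbours whose 95% intervals overlapped, at -1.60 to -1.09 and -1.58 to -1.24. Those of pch2, at -2.92 to -2.38, and c(3)G, at -1.08 to -0.43, did not overlap with them. For c(3)G and c(2)M the gap was very narrow.

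Set against each other on the same arrays, pch2 minus eco was -1.22 ± 0.53 on the log2 scale in hybrid against D. melanogaster (SD, n = 4), below 0 on each of these arrays. In hybrid against D. simulans the same difference was -1.16 ± 0.60 (SD, n = 6), from -1.77 to -0.07. The values of c(2)M minus eco ran from -0.97 to 0.31 and from -0.23 to 0.91 in those pairs, on both sides of 0. The values of c(3)G minus c(2)M were -1.41 ± 0.35 (SD, n = 5) in D. simulans against D. melanogaster and 0.92 ± 0.23 (SD, n = 5) in hybrid against D. simulans, with no change of sign among arrays in either, while in hybrid against D. melanogaster they ran from -0.51 to 0.95.

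The loop closure and the channel term of the fit measure no difference between strains. The closure is nevertheless computed from the same strain comparisons by which the genes were chosen, so it is not independent of that choice. For genes with missing values the channel term is not fully independent of it either. Loop closure is the direct D. simulans over D. melanogaster value minus the value obtained through the hybrid. For c(2)M, eco and pch2 this residue was 0.22 ± 0.29, -0.14 ± 0.19 and -0.35 ± 0.31 (SE), each near its own error. For c(3)G it was -0.68 ± 0.37 (limma, unadjusted p = 0.0874), so the direct arrays gave a larger species difference than the route through the hybrid. Within title numbers 14 to 18 alone, a set of arrays described below, it was -0.08, and within 1 to 8 alone -0.79. Without replicate 2 of hybrid against D. melanogaster it was -0.37 ± 0.22 (SE). None of the 4 passed after Benjamini-Hochberg adjustment over all features, and neither did any other feature (0 of 4753, or 0.0%, with 88 at an unadjusted p under 0.05). A count of 88 is below what chance alone gives at that limit, so the test was conservative. The lack of calls therefore does not show that the loop closes. With arrays scaled to a common spread, the residues of c(3)G, pch2 and eco passed, at -3.08, -1.15 and -0.59.

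The signal difference between channels was 0.08 ± 0.060 for eco, 0.04 ± 0.10 for pch2, -0.11 ± 0.095 for c(2)M and -0.26 ± 0.13 for c(3)G (SE). None of these passed (limma, adjusted p = 0.407, 0.843, 0.511 and 0.222), against 9.24% of all features. The term of c(3)G had opposite signs in the sets of title numbers, at -0.43 in 14 to 18, where it passed, and 0.26 in 1 to 8, where it did not. On the 3 self-hybridised arrays, c(3)G had log2 ratios of 0.11 with hybrid RNA, -0.57 with D. simulans RNA and -0.32 with D. melanogaster RNA. The value of -0.57 was the largest of any member there, on an array whose positions had an SD of 0.22. The ratios of c(2)M were -0.15, -0.30 and -0.21 in the same order, all below 0, and those of pch2 were 0.12, 0.26 and 0.23, all above 0. The ratios of eco were -0.05, -0.05 and 0.07.

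**Figure D3:**
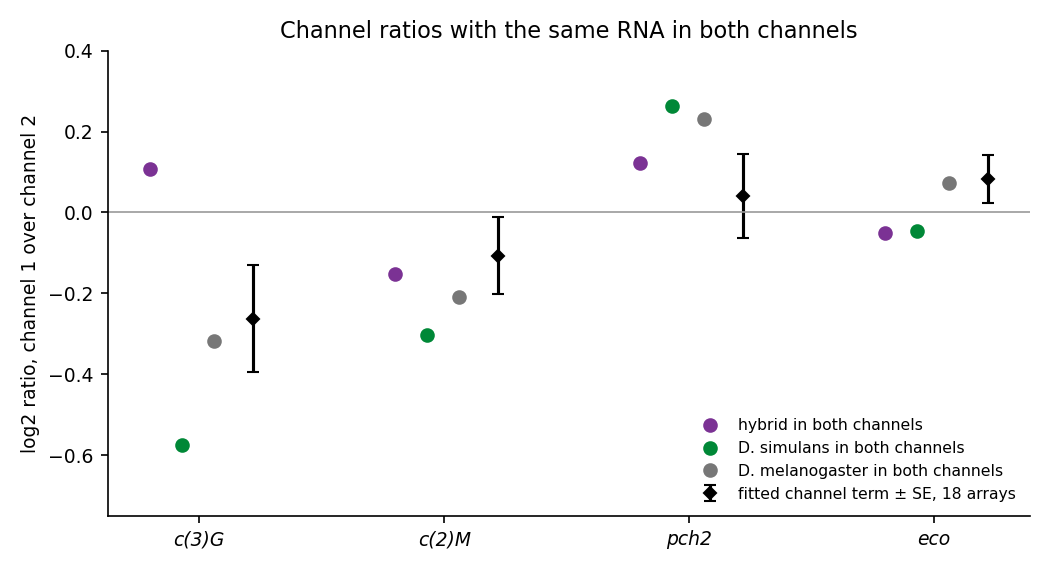
Log2 ratio of channel 1 over channel 2 for the 4 genes on the 3 self-hybridised arrays (coloured points) and the channel term fitted over the 18 arrays with 2 RNAs (black diamonds, ± SE). The c(3)G points spread from -0.57 to 0.11, whereas the eco points lie between -0.05 and 0.07.

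The channel position went along with the c(3)G value against D. simulans. With the hybrid in channel 1, 3 arrays averaged -0.36, and with it in channel 2, 2 arrays averaged 0.16. The same split gave -2.46 and -2.39 for pch2 and -1.19 and -0.89 for c(2)M, and it gave -1.002 and -1.52 for eco, a gap as wide as that of c(3)G and in the other direction.

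Array titles carry numbers, and the arrays of each pair fall into title numbers 14 to 18 and 1 to 8. The labels do not say what the numbers mean. Fitted within each set alone, the hybrid minus D. melanogaster value of c(3)G was -1.98 in title numbers 14 to 18 and -0.90 in 1 to 8. The difference between the sets was -1.08 ± 0.32 (SE, limma, adjusted p = 0.0304), with 19.8% of all features past the threshold in that test. The 3 arrays of the first set averaged -2.10 and the 3 of the second -0.79, and they did not overlap. In the second set, replicate 2 of the pair stood at -0.28 and the other arrays at -1.15 and -0.94. Without replicate 2 the value fitted over both sets was -1.88 ± 0.11 (SE).

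For c(2)M the same 2 values were -1.76 and -1.17, with a difference of -0.68 ± 0.26 (adjusted p = 0.0806). They were -3.03 and -2.89 for pch2 and -1.47 and -1.65 for eco, with differences smaller than their errors. For eco, title numbers 1 to 8 held only 1 direct array of hybrid against D. melanogaster, at -1.54. Against D. simulans, c(3)G stood at -0.09 in title numbers 14 to 18 and at 0.39 in 1 to 8, a difference of -0.66 ± 0.33 in the joint fit (adjusted p = 0.274, with 1.33% of all features past the threshold). Both arrays of that pair in title numbers 14 to 18 had the hybrid in channel 1, at -0.48 and -0.61, and the 1 array of set 1 to 8 with the hybrid in channel 1 stood at 0.01. Between the species c(3)G stood at -1.89 and -1.29 (difference -0.42 ± 0.31, adjusted p = 0.635, with 0.442% of all features past the threshold).

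**Figure D4:**
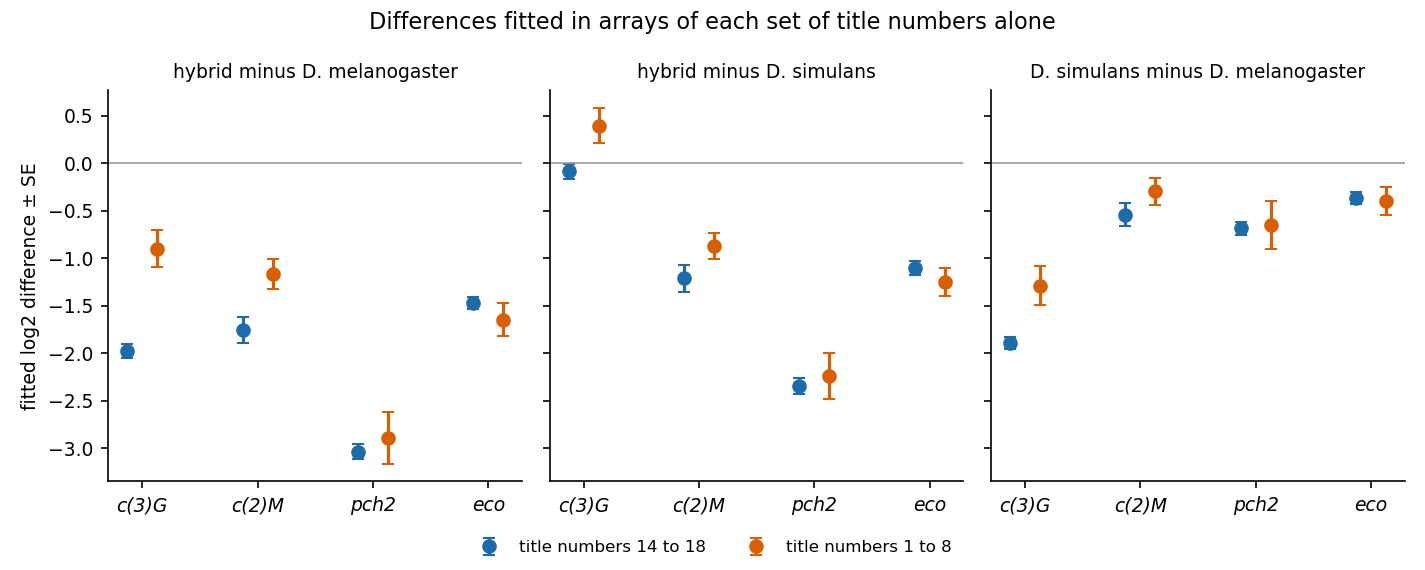
Log2 differences of the 4 genes fitted in arrays of title numbers 14 to 18 alone (blue, left) and 1 to 8 alone (orange, right), ± SE, for the 3 comparisons. The points of pch2 and eco lie together, while c(3)G differs between the sets, at -1.98 and -0.90 for hybrid minus D. melanogaster. In that comparison the eco point of 1 to 8 has only 1 direct array.

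The wider machinery was read from lists of meiosis, cohesin, condensin, break repair and checkpoint genes, in which 103 entries other than the 4 genes were listed and 8 could be tested under a symbol. Against D. melanogaster 6 of these 8 fell in the hybrid and 0 rose, with a median log2 of -0.96. Against D. simulans 6 fell and 1 rose, with a median of -0.76. The shares called lower over all features were 41.8% and 40.8%. These lists, and those of other tissues below, were drawn up with earlier results of these data known. Their counts are therefore a description and carry no test, and the adjusted p-values of listed genes measure the spread between arrays only. No condensin gene and no axis or synaptonemal complex gene beyond c(3)G and c(2)M could be tested under a symbol.

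Of the cohesin genes, SMC1, a core subunit of the ring, fell in the hybrid, at -0.95 ± 0.12 against D. melanogaster and -0.97 ± 0.12 against D. simulans on the log2 scale (SE, limma, adjusted p = 2.26e-07 and 1.69e-07). It differed by 0.02 ± 0.12 between the species, so the hybrid stood apart from 2 similar parental levels. Its array ratios lay below 0 on 6 of 6 arrays of both pairs.

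Among the break repair genes, mre11, whose product is a nuclease of the complex that processes DNA ends, fell, at -0.48 ± 0.083 against D. melanogaster and -0.99 ± 0.083 against D. simulans (adjusted p = 2.24e-05 and 1.06e-09), on 5 of 6 and 6 of 6 arrays. The call against D. melanogaster was lost with arrays scaled to a common spread (-0.17) and in title numbers 1 to 8 alone (-0.28). The species differed the other way than for the 4 genes, with D. simulans higher by 0.51 ± 0.083 (adjusted p = 5.38e-05). The structure-specific nuclease gene mus81 stood at 0.03 ± 0.10 against D. melanogaster (adjusted p = 0.795) and rose by 0.30 ± 0.10 against D. simulans (adjusted p = 0.00901, higher on 6 of 6 arrays). That call was lost with the deposited medians kept (0.18) and in title numbers 14 to 18 alone (0.0416).

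Of the checkpoint genes besides pch2, ball, which encodes the histone kinase NHK-1 of the oocyte, fell, at -1.11 ± 0.19 against D. melanogaster and -1.24 ± 0.19 against D. simulans (adjusted p = 3.38e-05 and 7.17e-06), on 4 of 5 and 6 of 6 arrays. The damage response gene p53 fell, at -0.99 ± 0.063 against D. melanogaster and -0.23 ± 0.063 against D. simulans (adjusted p = 1.37e-11 and 0.00268), on 6 of 6 arrays of both pairs. Its species difference of -0.76 ± 0.063 (adjusted p = 7.43e-09) was larger than that between hybrid and D. simulans, an order also seen in c(3)G. Its hybrid minus D. simulans value became 0.16 when arrays were scaled to a common spread and -0.02 in title numbers 14 to 18 alone.

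The spindle checkpoint gene Zwilch, part of a complex at unattached kinetochores, had the lowest values of the 8, at -2.29 ± 0.12 and -2.26 ± 0.12 against D. melanogaster and D. simulans (adjusted p = 1.22e-12 and 1.56e-12), and -0.03 ± 0.12 between the species. The hybrid was lower on 6 of 6 arrays of both pairs. The germline regulator mei-P26 fell, at -0.97 ± 0.081 and -0.54 ± 0.081 (adjusted p = 8.16e-10 and 3.5e-06, 6 of 6 arrays of both pairs), and the spindle gene tacc stood at -0.08 and 0.08 (adjusted p = 0.409 and 0.402). With arrays scaled to a common spread the call of mei-P26 against D. simulans was lost (-0.21). Among all 12 genes, pch2 had the lowest hybrid value against each parent, with Zwilch next.

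**Figure D5:**
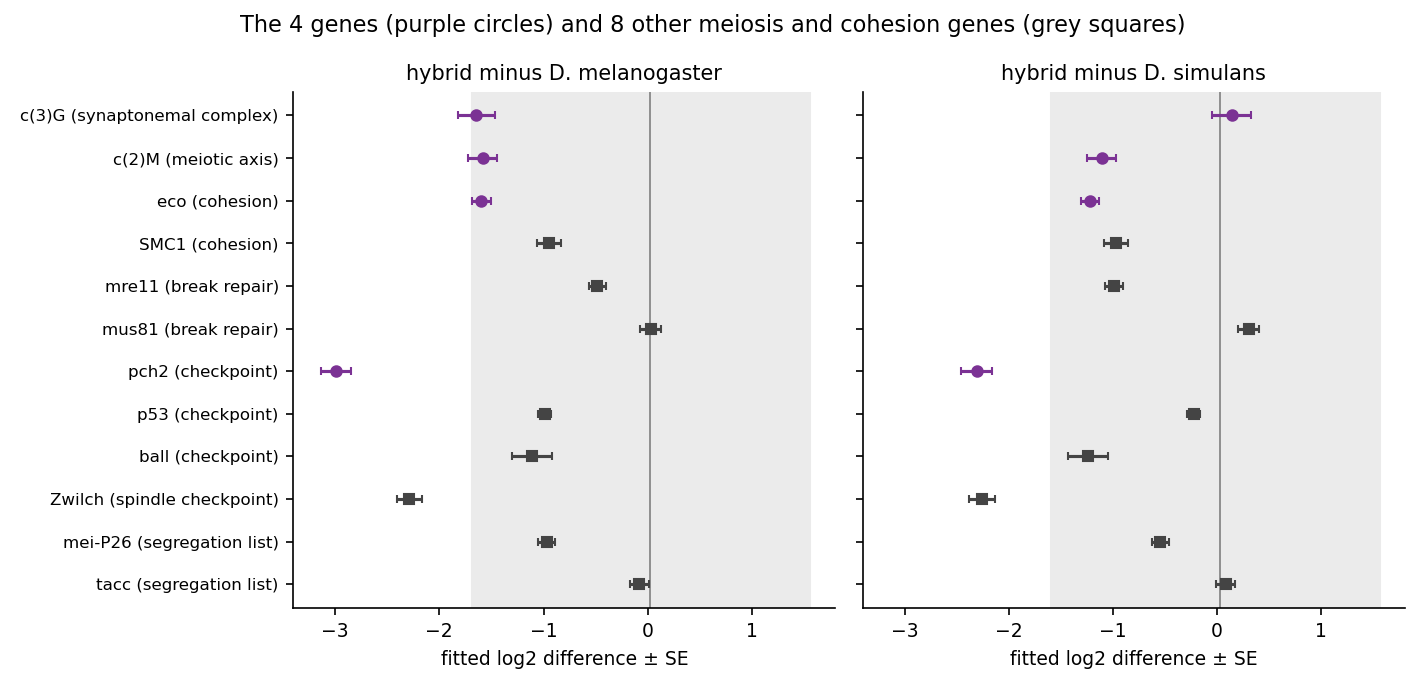
Fitted log2 differences ± SE for the 4 genes (purple circles) and the 8 other listed genes that could be tested (grey squares), ordered by role, for hybrid minus D. melanogaster (left) and hybrid minus D. simulans (right). The grey band spans the 5th to 95th percentile of all 4753 features and the line their median, and pch2 and Zwilch lie below the band in both panels.

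Markers of yolk and fat body, muscle and neurons mostly went the other way from the 4 genes. Of 7 measured yolk and fat body genes (20 listed), 7 rose and 0 fell in the hybrid against D. melanogaster, where 42.0% of all features were called higher. Against D. simulans 6 rose and 0 fell, with 41.5% of all features called higher, and the list's median log2 values were 1.03 and 1.56. Muscle genes rose in 4 of 4 in both comparisons and neuronal genes in 3 of 5 in both, with 1 of 5 lower against D. simulans. Of the germline list, 3 of 24 entries could be tested. The piRNA nuclease gene zuc fell, at -1.74 ± 0.17 and -1.73 ± 0.16 (adjusted p = 1.15e-08 and 9.86e-09), ovo stood at -0.01 and -0.04, and Fs(2)Ket at -0.36 and 0.25 (adjusted p = 0.00566 and 0.0438). The call of Fs(2)Ket against D. simulans was lost in 13 of 18 fits with 1 array left out, and that against D. melanogaster in title numbers 14 to 18 alone (-0.0633). Both calls were lost with direct arrays alone (-0.31 against D. melanogaster and 0.21 against D. simulans). The defining germline genes vas, aub, nos and bam and the chorion and vitelline membrane genes had no tested value under a symbol, and of the follicle cell list only br was tested, at -0.38 and -0.59 (adjusted p = 0.00705 and 0.000173). In title numbers 14 to 18 alone br stood at 0.13 and -0.0568, with no call against D. simulans. Its call against D. melanogaster was lost with direct arrays alone (-0.21). Of 2 testis genes tested, 2 rose against D. melanogaster and 1 rose against D. simulans. The part of tissue makeup in the values of the 4 genes was not tested.

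Likeness of pattern was measured as the cosine of the values over the arrays with 2 RNAs, as a description of arrays that share their pools. The nearest genes were sought among named genes sharing at least 16 arrays, a limit not applied between the 4 members. The 4 genes were chosen by these same values, so likeness among them was partly fixed in advance and carries no test. How often other genes reach such values is not given here. Among the 4, pch2 and eco were most alike at 0.97 (16 arrays), followed by c(2)M with pch2 at 0.91 (17 arrays) and with eco at 0.91 (16 arrays). The gene c(3)G stood apart, at 0.74 with c(2)M (15 arrays), 0.64 with pch2 (16 arrays) and 0.59 with eco (14 arrays).

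The genes most like eco were Hpf1, a cofactor of poly-ADP-ribosylation, at 0.99, Pdcd4 at 0.99 and CG15107 at 0.99 (16 arrays each). Those most like pch2 were O-fut1, a protein fucosyltransferase gene, and Prim2, which encodes a primase subunit, both at 0.98 (18 arrays), and PCID2 at 0.98 (17 arrays). In the hybrid against D. melanogaster, Prim2 stood at -2.26 and O-fut1 at -1.94, above the -2.99 of pch2. CG6683, CG4911 and CG11454 were most like c(2)M, at 0.97, 0.95 and 0.95 (16 arrays each). For c(3)G the nearest were Nadsyn at 0.94, kipf at 0.94 and dpr6 at 0.92 (16 arrays each), and these had smaller differences, at -0.35, -0.85 and -0.49 in the hybrid against D. melanogaster.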

How the data were processed

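The authors deposited a linear ratio for each probe position of an array. On the scanner, background correction, normalization or filtering of spots nothing is given in the sources used here. No channel intensities were used, signal over background is unknown, and precision is limited by the number of arrays. Array medians of the deposited ratio ran from 0.852 to 1.11, with 4657 to 4946 positions holding a value. Gene names came from the platform annotation (1943 of 6101 positions with 1 symbol, 67 with several, 4091 with none). Checking them by gene identifier against RefSeq (Release 6 plus ISO1 MT) changed 0 symbols.

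Ratios were put on the log2 scale, array medians were subtracted because 8 arrays lay over 0.1 from 0, and positions of a gene were averaged. Features with at least 4 of 6 values in each pair were fitted with limma 3.58.1 in R 4.3.3 over 18 arrays, with coefficients for hybrid and D. simulans RNA and a channel term. Its moderated two-sided p-values were adjusted over all features (Benjamini-Hochberg, threshold 0.05). The fit was tested on simulated data. Missing values were left out, so c(3)G and eco each entered with 16 of 18 values and c(2)M with 17.

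The members and lists were chosen with earlier results of these data known. Named genes were the 4 members, listed genes of their pathways, and the 3 genes most like each member; markers of other tissues are given mainly as counts. Alternatives changed the centring, the channel term, array scaling, filters, averaging, a block on title numbers, array weights and the arrays used. The test between sets of title numbers was added after the data were seen. Sequences were not used here.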

Additional observations from a re-analysis of the deposited data

Results flagged for a closer look

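Single arrays lay apart from the rest of their pair for c(2)M in D. simulans against D. melanogaster, where the highest of 6 log2 ratios was 0.38, and for 4 of the other listed genes. These were SMC1, with a highest ratio of 0.33 in D. simulans against D. melanogaster and a lowest of -2.01 in hybrid against D. melanogaster, mus81, with a highest of 1.17 in hybrid against D. simulans, ball, with a lowest of -0.82 in D. simulans against D. melanogaster, and mei-P26, with a highest of -0.43 in hybrid against D. melanogaster. In each case the gap to the next array, divided by the range, exceeded Dixon's 95% critical value. That was 6 of 36 groups of arrays examined, and chance alone flags about 1 group in 20. The flagged values of c(2)M, SMC1 and ball in D. simulans against D. melanogaster came from the same array, replicate 2 of that pair. It also held the pair's lowest values of pch2 (-1.23) and eco (-0.55). The flagged SMC1 value in hybrid against D. melanogaster came from replicate 2 of that pair. That array also held the pair's highest values of c(3)G (-0.28), pch2 (-1.97) and ball (0.13), while c(2)M and eco were at neither end of their ranges there. The groups were therefore not independent, and the chance rate is only a rough guide.

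The hybrid minus D. melanogaster value of c(3)G differed between title numbers 14 to 18 and 1 to 8 by -1.08 on the log2 scale (limma, adjusted p = 0.0304), and all arrays of both sets had the hybrid lower.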

How the results depend on the processing

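Other settings kept the sign of each called difference of the 4 genes. Scaling the arrays to a common spread moved most values. For c(3)G it gave -3.02 in D. simulans minus D. melanogaster and 1.06 in hybrid minus D. simulans, and for c(2)M -0.64 in hybrid minus D. simulans. For pch2 it gave -2.48, -1.39 and -1.93 in the hybrid against D. melanogaster, D. simulans and the parental mean, and -1.08 between the species, and for eco -1.35, -0.76, -1.06 and -0.60. Under that scaling the loop closure passed the threshold for 994 features, against 0 without it. The scaling gives the same spread to pairs whose fitted differences were unlike in size. Their median absolute log2 value over all features was 0.21 between the species, and 0.67 and 0.61 for the hybrid against D. melanogaster and D. simulans. In title numbers 1 to 8 alone c(3)G stood at -1.29 between the species, and direct arrays alone gave -1.42 for eco in hybrid minus D. melanogaster. With array weights 3499 features differed between the species instead of 2223. Channel terms passed for 439 features, for 212 with scaled arrays, 290 with title numbers as a random block (correlation 0.137), 2164 with array weights, 1492 in title numbers 14 to 18, 105 in 1 to 8, and 234 to 649 with 1 array left out. It was 289 and 234 without hybrid against D. melanogaster replicate 5 or 6, and 272 and 241 without hybrid against D. simulans replicate 5 or 6. The channel term of c(3)G passed at -0.45 with array weights, at -0.43 in title numbers 14 to 18 and at -0.39 without hybrid against D. melanogaster replicate 2, and that of c(2)M at -0.15 with array weights.

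In title numbers 14 to 18 alone, signs turned for mus81 (-0.27), tacc (0.15), ovo (0.19) and br (0.13) against D. melanogaster, and for Fs(2)Ket (0.19), br (0.0353) and ovo (0.14) against the parental mean. With array weights ovo stood at 0.13 and 0.0948, and with scaled arrays p53 at 0.16 against D. simulans. The causes were not tested. None of the 4 genes except pch2 could be fitted among features with values on all 18 arrays. With 1 array left out, c(3)G had fitted values of -1.88 to -1.55 in hybrid minus D. melanogaster and 0.05 to 0.21 in hybrid minus D. simulans. No paired analysis was possible because array pairs share only title number 16, on 1 array each of hybrid against D. melanogaster and D. simulans against D. melanogaster, and title numbers were used as a random block instead.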
